A study of Mus musculus with 192 samples.

Results

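Genes of epithelial cell junctions, 8 of the 24264 genes in a table of RNA molecules from single mouse embryonic stem (ES) cells, are described here across all 96 wells of 1 microfluidic chip. They are Cdh1, Ctnnb1, Epcam, Cldn4, Cldn6, Cldn7, Ocln and Tjp1, found by name, and all 8 had molecules. The genes were chosen by measured values, since earlier results from these wells were known when they were named, and the wells were divided by their total of gene molecules, so levels and differences below are descriptions without a test. The cells were of R1, an ES cell line, grown to confluency in ES1 medium on irradiated mouse embryonic fibroblast feeders, all from 1 culture and with no treatment that differs between them. Feeders were left to settle out, and dead and early apoptotic cells were removed with annexin V beads before freezing and loading on the chip. The deposited libraries fall into 96 made with 21 cycles of PCR and the same 96 after 9 further cycles. Each well's column of counts carries the barcode of both forms, so the forms were not compared.

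Epithelial cells hold together through 2 kinds of junction near their upper edge. In adherens junctions E-cadherin (Cdh1) binds its like on the next cell and is tied to actin through beta-catenin (Ctnnb1), which is also the signal carrier of the Wnt pathway. In tight junctions the membrane proteins of the claudin family and occludin (Ocln) seal the space between cells, and ZO-1 (Tjp1) is the scaffold beneath them. Epcam is a surface glycoprotein of epithelia that binds claudin-7. Mouse ES cells are known to grow as tight colonies and to depend on E-cadherin for that shape, and Epcam marks them in the undifferentiated state.

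Levels are molecules per 10000 gene molecules of a well, counted as molecules and not divided by transcript length. Wells fell into 45 with at most 35543 gene molecules (low-RNA wells, median 22234) and 51 with at least 51390 (RNA-rich wells, median 98750). The median share of mitochondrially encoded RNA was 29.1% in low-RNA wells and 10.4% in RNA-rich wells, and levels per gene molecule include it. Wells C03 and H03 had spike-in totals over 4 times the median and the 2 highest gene totals (319520 and 573648), and H12, a low-RNA well, had a spike-in total over 4-fold under the median. All 13 fixed ES cell markers had molecules in both ranges, with a median summed level of 55.2 in low-RNA and 94.5 in RNA-rich wells. Most of that sum was Dppa5a, with 3780 of 5756 marker molecules in low-RNA and 40352 of 56474 in RNA-rich wells. Well E02 differed from the others of its range in holding the highest summed level of 15 feeder fibroblast markers, 46.5, against a median of 2.26 in RNA-rich wells. All 96 wells were kept, and no doublet caller was run. As all cells came from 1 culture, they make 1 sample, and spreads are spreads between wells.

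The promoters of 7 members were found in RefSeq's table for GRCm38.p6, and Cdh1 is not among them. The 250 bases before the start are shown for Cldn4, Epcam and Cldn7, which belong to the pairs of members whose levels went together most closely. Capitals mark CAGGTG or its reverse complement CACCTG, the E-box bound by repressors of the Snail and Zeb families in epithelial promoters.
Cldn4, chr5:134946935-134947184, minus strand: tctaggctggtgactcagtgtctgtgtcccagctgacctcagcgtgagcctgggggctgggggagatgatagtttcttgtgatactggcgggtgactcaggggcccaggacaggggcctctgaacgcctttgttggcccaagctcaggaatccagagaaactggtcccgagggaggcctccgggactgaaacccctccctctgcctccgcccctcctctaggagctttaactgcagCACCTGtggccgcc
Epcam, chr17:87635729-87635978, plus strand: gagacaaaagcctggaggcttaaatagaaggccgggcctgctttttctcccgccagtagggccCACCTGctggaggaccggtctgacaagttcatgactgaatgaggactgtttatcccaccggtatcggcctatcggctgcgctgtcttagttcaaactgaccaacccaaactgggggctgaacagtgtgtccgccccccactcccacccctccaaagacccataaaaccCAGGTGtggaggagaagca
Cldn7, chr11:69964529-69964778, plus strand, the first of 2 listed starts: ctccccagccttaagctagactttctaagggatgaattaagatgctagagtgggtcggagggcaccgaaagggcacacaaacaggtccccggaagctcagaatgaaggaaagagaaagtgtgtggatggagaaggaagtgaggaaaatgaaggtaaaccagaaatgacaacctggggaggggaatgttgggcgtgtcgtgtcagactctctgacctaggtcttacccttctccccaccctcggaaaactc
The Cldn4 window held 1 E-box, beginning 14 bases before the start, and the Epcam window held 2, at 187 and 19 bases. Cldn6, whose window overlaps an annotated exon and is not printed, held 1 at 93 bases. No match was in the Cldn7 window shown, while the window of its second start, which overlaps an exon of Cldn7 and is not printed, held 2, at 97 and 57 bases. Of windows not printed, that of Tjp1, both of Ctnnb1 and the first of Ocln held no match. The second of Ocln, which overlaps an exon of Ocln, held 2, at 213 and 68 bases. Over 32851 windows of the same length, 17.2% held the motif on either strand. The GC box GGGCGG, searched on both strands, was present in 32.7% of windows and TATAAA in 12.4%. Cldn4 and Epcam each had 1 GC box on the reverse strand, and neither motif was in the first Cldn7 window. That of the second start had 1 GC box.

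On GRCm38 with GENCODE M21, Cdh1 lies on chromosome 8 from 106603351 to 106670246 and Ctnnb1 on chromosome 9 from 120929216 to 120960507. Epcam lies on chromosome 17 from 87635979 to 87651129, and Cldn6 on the same chromosome from 23679249 to 23682446. Cldn4 lies on chromosome 5 from 134945119 to 134946934, Cldn7 on chromosome 11 from 69964779 to 69967885, Ocln on chromosome 13 from 100496507 to 100552718 and Tjp1 on chromosome 7 from 65296165 to 65527781. Uniquely mapped reads gave 100% of the molecules of each of the 8. Exons of Ctnnb1 overlap exons of Ulk4 on the other strand and Mir7090 on the same strand, and whether counting used strand is not given in the sources used here. For the other 7 no exon of another annotated gene overlaps.

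Cdh1, the adhesion molecule of adherens junctions, was found in every RNA-rich well and in 43 of 45 low-RNA wells. Its level in RNA-rich wells ran from 0.185 in the lowest through a median of 1.35 to 5.29 in D08. In low-RNA wells it ran from 0 through 1.39 to 9.15 in D03, where it rested on 10 molecules. The ranges of wells overlapped almost entirely, and their pooled levels were 1.62 in low-RNA and 1.73 in RNA-rich wells. Of 1224 molecules of all genes named as numbered cadherins in RNA-rich wells, Cdh1 gave 82.4% (exact Clopper-Pearson 95% interval 80.2% to 84.5%, counting error only). Cdh2, N-cadherin of mesenchymal and neural cells, gave 11.9% and Cdh3, P-cadherin, 3.51%. In low-RNA wells Cdh1 gave 85.4% of 192 cadherin molecules (79.6% to 90.1%), so its lead was present in both ranges.

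Ctnnb1 was likewise found in all RNA-rich and 43 low-RNA wells. In RNA-rich wells its level ran from 0.595 through a median of 1.52 to 14.5, and in low-RNA wells from 0 through 1.43 to 4.78. The highest value belonged to E02, with 79 molecules, and the next RNA-rich well, A09, had 4.57. E02 lay under the RNA-rich median for Cdh1 with 3 molecules (level 0.551), Epcam with 5 (0.919) and Cldn6 with 2 (0.368). So it did for Cldn7 and Cldn4, each with 1 molecule (0.184). The RNA-rich median of Cldn4 was 0.355, and in RNA-rich wells under a keratin limit described below it was 0.193, near the level in E02. Ocln had none, and its median was 0 as well. Tjp1 had 9 molecules in E02 (1.65), its highest level among RNA-rich wells under that limit. E02 held 54410 gene molecules, its mesenchymal gene sum was 52.7 against a median of 2.78 in RNA-rich wells, and its ES cell marker sum was 29.6. Well D02 had a like profile, with a mesenchymal sum of 50.8, a feeder sum of 28.2 and an ES cell marker sum of 23.7, but a Ctnnb1 level of 1.45. All 13 ES cell markers had a molecule in E02. The part of RNA from other cells in the single molecules of Cldn4 and Cldn7 in E02 was not tested.

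Epcam had the evenest level of the 7 members with a mean of at least 1 molecule. It ran from 0.270 through a median of 1.68 to 3.86 in RNA-rich wells, and from 0 through 1.25 to 4.03 in low-RNA wells. Its CV, after scaling wells to one gene total, over RNA-rich wells was 47.1%, against 64.2% for Cdh1 and 162% for Cldn4. Cdh1, Ctnnb1 and Epcam were found together in all 51 RNA-rich wells and in 39 of 45 low-RNA wells, and no well lacked all 3.

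Among claudins, Cldn6, a claudin of early embryonic epithelia, was the most abundant. Its level ran from 0.111 through a median of 1.23 to 5.46 in RNA-rich wells and from 0 through 0.980 to 3.67 in low-RNA wells. Cldn7 ran from 0 through 0.495 to 2.72 in RNA-rich wells, and from 0 through 0.473 to 2.03 in low-RNA wells. Cldn4, a claudin of simple epithelia, ran from 0 through 0.355 to 6.23 and from 0 through 0 to 1.14. Thus Cldn6 was seen in every RNA-rich well, while Cldn7 was at 0 in 5 of them and Cldn4 in 9.

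The table has 25 genes named as numbered claudins, taken by name alone, of which 9 had a molecule and 6 at least 50. Cldn6 gave 42.2% of 2028 claudin molecules in RNA-rich wells (40.05% to 44.4%), Cldn7 22.1% (20.3% to 23.96%) and Cldn4 16.9% (15.3% to 18.6%). The remainder was mostly Cldn25 (9.07%), Cldn12 (4.54%) and Cldn3 (3.45%), and Cldn9 gave 1.13%. Of 45 RNA-rich wells with at least 10 claudin molecules, Cldn6 led alone in 26, Cldn7 in 8, Cldn12 in 3, Cldn25 in 3 and Cldn4 in 1, and 4 were tied. The leading claudin of a well therefore differed between wells, with Cldn6 most often first.

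**Figure D1:**
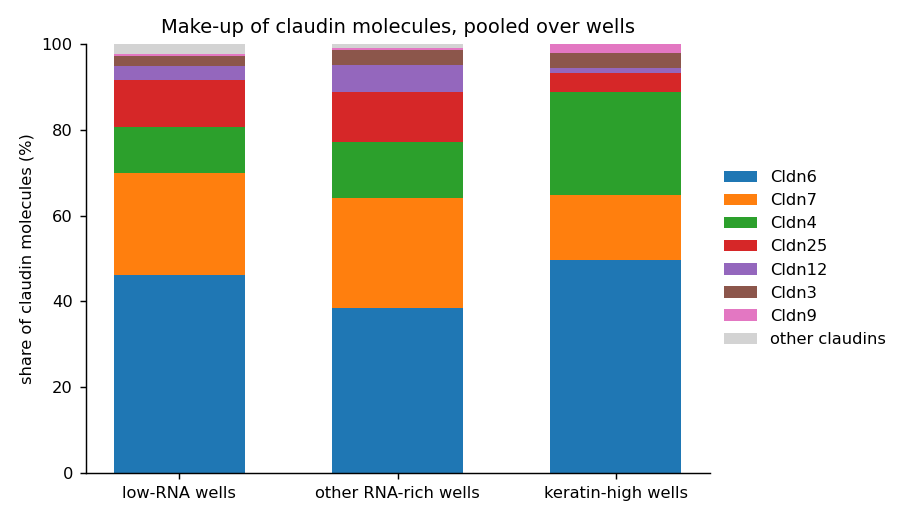
Stacked bars give the share of claudin molecules (percent, from 0 to 100) of each claudin gene, pooled over 45 low-RNA wells, 42 other RNA-rich wells and 9 keratin-high wells. Cldn6 is the largest piece in each bar, and Cldn4 makes up 24.1% in keratin-high wells against 13.2% in other RNA-rich wells.

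The membrane protein Ocln was the scarcest member in each range, and the cytoplasmic scaffold Tjp1, with 369 molecules in all, was close to Cldn4, with 370. Tjp1 ran from 0 through a median of 0.309 to 3.17 in RNA-rich wells and from 0 through 0 to 1.68 in low-RNA wells. Ocln had 43 molecules over all 96 wells, with 37 of them in 16 RNA-rich wells and 10 in D08 alone. Its median was 0 in both ranges, and at this depth a well with no Ocln molecule cannot be told from one with little. All 8 members were found together in 13 RNA-rich wells, with a median of 7 members per RNA-rich well and 5 per low-RNA well.

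Low-RNA and RNA-rich wells held these genes within 2-fold of each other per gene molecule, apart from Cldn4. Pooled levels of Cldn4 were 0.267 in low-RNA and 0.588 in RNA-rich wells, a ratio of 0.455 (exact conditional binomial 95% interval 0.295 to 0.673, counting error only). The other ratios were 0.939 for Cdh1 (0.791 to 1.11), 0.822 for Ctnnb1 (0.692 to 0.971), 0.850 for Epcam (0.717 to 1.004), 0.776 for Cldn6 (0.633 to 0.944), 0.761 for Cldn7 (0.570 to 0.999) and 0.624 for Tjp1 (0.430 to 0.882). Ocln, with 6 molecules in low-RNA wells, had 0.936 with an interval from 0.323 to 2.24. The median ratio over 8276 genes with at least 50 molecules was 0.760, so most members lay near it.
Of the 7 members with at least 50 molecules, 1 was at least 2-fold lower in low-RNA wells and none was 2-fold higher. Over all such genes 14.2% were 2-fold lower and 4.37% higher, so the members' count lay near the background. With the gene total without mitochondrially encoded genes and Rn45s, the ribosomal RNA precursor, 5.20% were lower and 10.8% higher. The call of Cldn4 was lost without the keratin-high wells (ratio 0.732), and under that total (0.610). Under it the median of all genes moved to 1.02, and the ratios of Cdh1 (1.26), Epcam (1.14), Ctnnb1 (1.10), Cldn6 (1.04), Cldn7 (1.02) and Ocln (1.26) turned to above 1, while Tjp1 stayed below at 0.837.

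**Figure D2:**
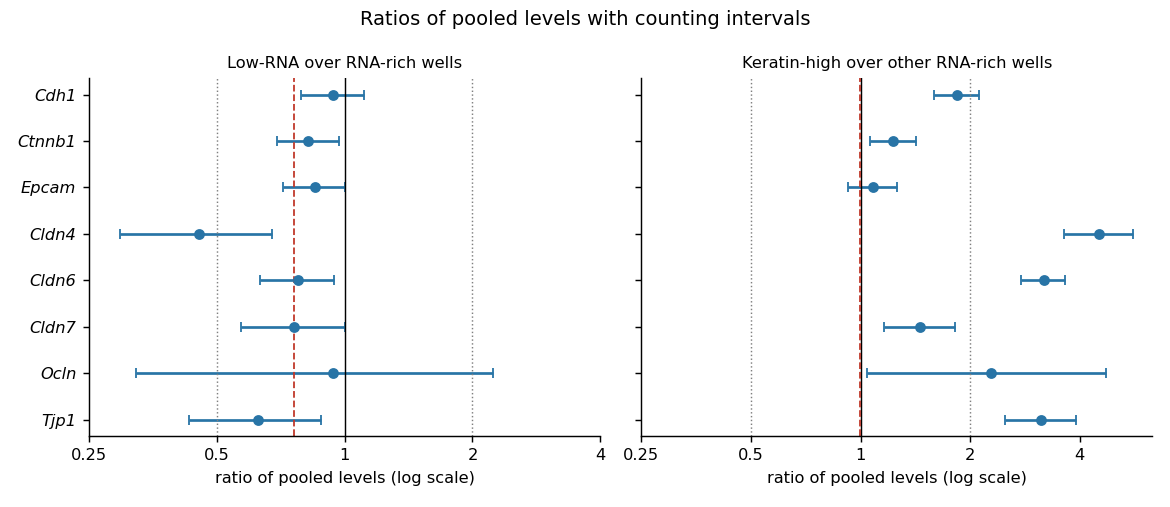
Ratios of pooled levels (log scale) with exact 95% counting intervals for the 8 genes, low-RNA over RNA-rich wells on the left and keratin-high over other RNA-rich wells on the right. The dashed line is the median ratio of all genes tested (0.760 and 0.997), dotted lines mark 2-fold, and Cldn4, Cldn6 and Tjp1 lie past 2-fold with their whole intervals on the right.

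Detection differed between the ranges mainly where levels were low. Cldn4 had a molecule in 42 of 51 RNA-rich wells (82.4%, exact 95% interval 69.1% to 91.6%) and 19 of 45 low-RNA wells (42.2%, 27.7% to 57.8%). With every well thinned to 10000 gene molecules, which left out 2 low-RNA wells, the expected shares were 33.98% and 24.1%. Tjp1 had 82.4% and 44.4%, and 33.6% and 27.5% after thinning. Cdh1 went from 100% and 95.6% to 72.1% and 77.98%, and Cldn6 from 100% and 93.3% to 63.7% and 68.6%, so the order of the ranges turned over for both. Epcam had 79.99% and 77.7% after thinning, and Cldn7 44.3% and 44.8%.

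**Figure D3:**
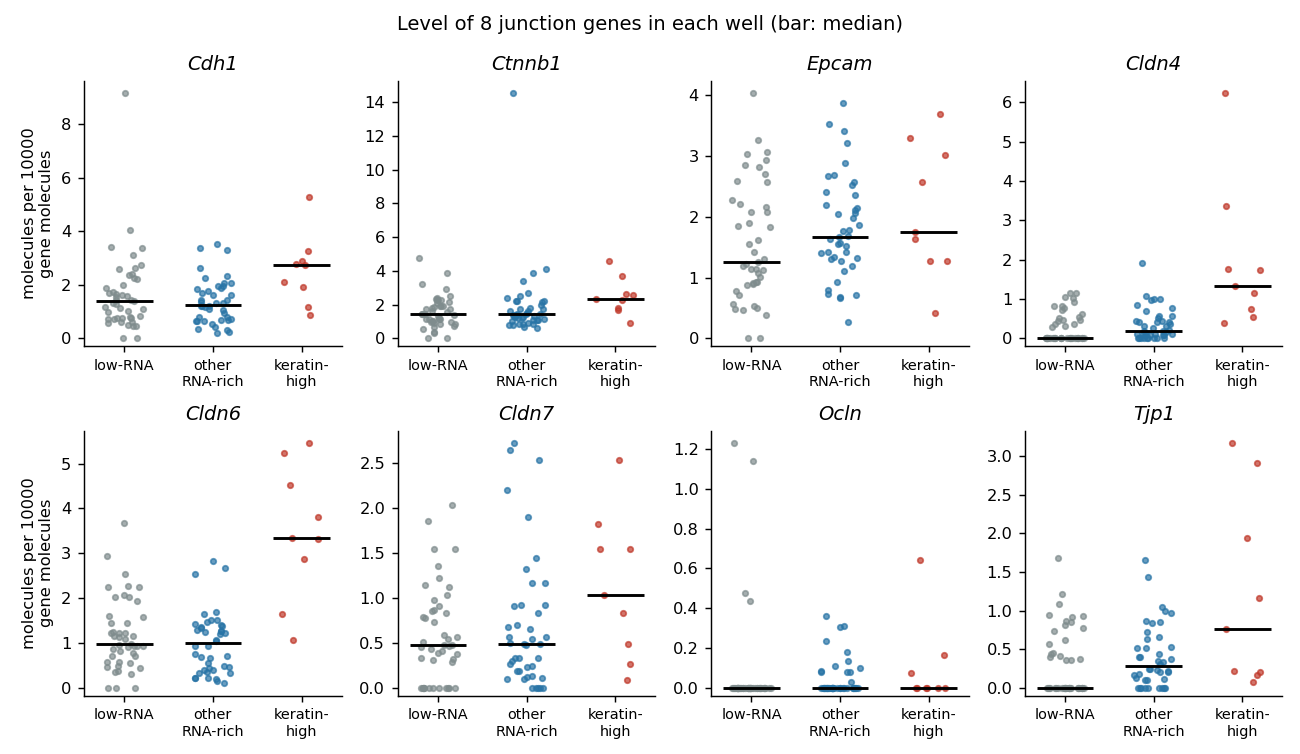
Each point is 1 well and the vertical axis is the level in molecules per 10000 gene molecules, for 45 low-RNA wells, 42 other RNA-rich wells and 9 keratin-high wells, with bars at the median. Cldn6 has a median of 3.34 in keratin-high wells and 0.995 in other RNA-rich wells, while Epcam has 1.74 and 1.67.

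Within the RNA-rich range, the wells with most keratin RNA also had more Cldn4, Cldn6 and Tjp1. Keratins 8 and 18 (Krt8, Krt18) form the filaments of simple epithelia, and 9 wells had a summed level of at least 20. The lowest of them, H05, had 20.5 and the highest of the 42 other wells 10.8, so no well lay between. Trophectoderm markers gave molecules of 6 of 9 genes in the 9 wells, with Elf5, Tfap2a and Hand1 at 0, and Cdx2 was found in 3 wells. Their summed level had a median of 0.769 in the 9 wells and 0.186 in the others. Krt7, itself a keratin of simple epithelia, had a ratio of 11.3 (7.37 to 17.9), Cdx2 13.1 (3.87 to 56.3, on 11 and 4 molecules) and Gata3 16.6 (5.22 to 69.4, on 14 and 4), while Tfap2c had 0.396 (0.155 to 0.853) and Eomes 0.352 (0.0406 to 1.40). Without its highest keratin-high well Krt7 had 10.1, Cdx2 4.10 (without G10) and Gata3 3.79 (without A09). Tfap2c and Eomes fell likewise, to 0.199 and 0.187. The part of these trophectoderm markers in the levels of the junction genes was not tested. These wells are a range of keratin level and are given no cell type name.

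Cldn4 ran in these 9 wells from 0.379 through a median of 1.32 to 6.23 in A11, and in the 42 others from 0 through 0.193 to 1.93. Pooled levels were 1.65 and 0.365, a ratio of 4.51 (3.63 to 5.61), and 3.84 without A11. All 9 wells lay above the median of the others, although the ranges overlapped.
Cldn6 ran from 1.08 through 3.34 to 5.46 in the 9 wells and from 0.111 through 0.995 to 2.84 in the others. The ratio was 3.18 (2.76 to 3.65), with all 9 wells above the median of the others and 7 above the highest of them.
Tjp1 was uneven within the 9 wells, from 0.0836 through 0.758 to 3.17 in G12, against 0 through 0.278 to 1.65. Its ratio of 3.12 (2.49 to 3.91) rested on fewer wells, with 5 of 9 above the median of the others, and was 2.35 without G12.

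Cdh1, Cldn7 and Ctnnb1 were raised less in the keratin-high wells, and Epcam was about level. Cdh1 ran from 0.879 through a median of 2.73 to 5.29, against 0.185 through 1.26 to 3.51, with a ratio of 1.83 (1.59 to 2.11). Cldn7 had a ratio of 1.46 (1.16 to 1.82) and Ctnnb1 1.23 (1.06 to 1.42). That of Epcam was 1.08 (0.925 to 1.26), with 5 of 9 wells above the median of the others. Among the 9 wells Epcam itself ranged from 0.418 in H07, the well of most keratin, to 3.70 in A11. Ocln had 12 molecules there and 25 in the others, with 10 of the 12 in D08, and its ratio of 2.28 became 0.449 without that well.
Over the 7811 genes with at least 50 molecules in RNA-rich wells the median ratio was 0.997, and 8.72% were at least 2-fold higher in keratin-high wells and 9.5% lower. Of the 7 members past that filter, 3 were 2-fold higher (Cldn4, Cldn6 and Tjp1), none was lower, and their median ratio was 1.83. Leaving out the highest keratin-high well of each gene, as done for some genes above, here and below, cannot raise a ratio. Over all 7811 genes it moved the median to 0.803, with 4.42% at least 2-fold higher and 21.5% lower.
Claudin molecules of the keratin-high wells were 49.6% Cldn6 (45.8% to 53.4%) and 24.1% Cldn4 (21.0% to 27.5%), against 38.4% and 13.2% in other RNA-rich wells. Cldn7 made up 15.2% (12.6% to 18.1%) against 25.7% (23.3% to 28.1%). Cdh1 gave 85.4% of cadherin molecules in the keratin-high wells and 81.3% in the others.

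**Figure D4:**
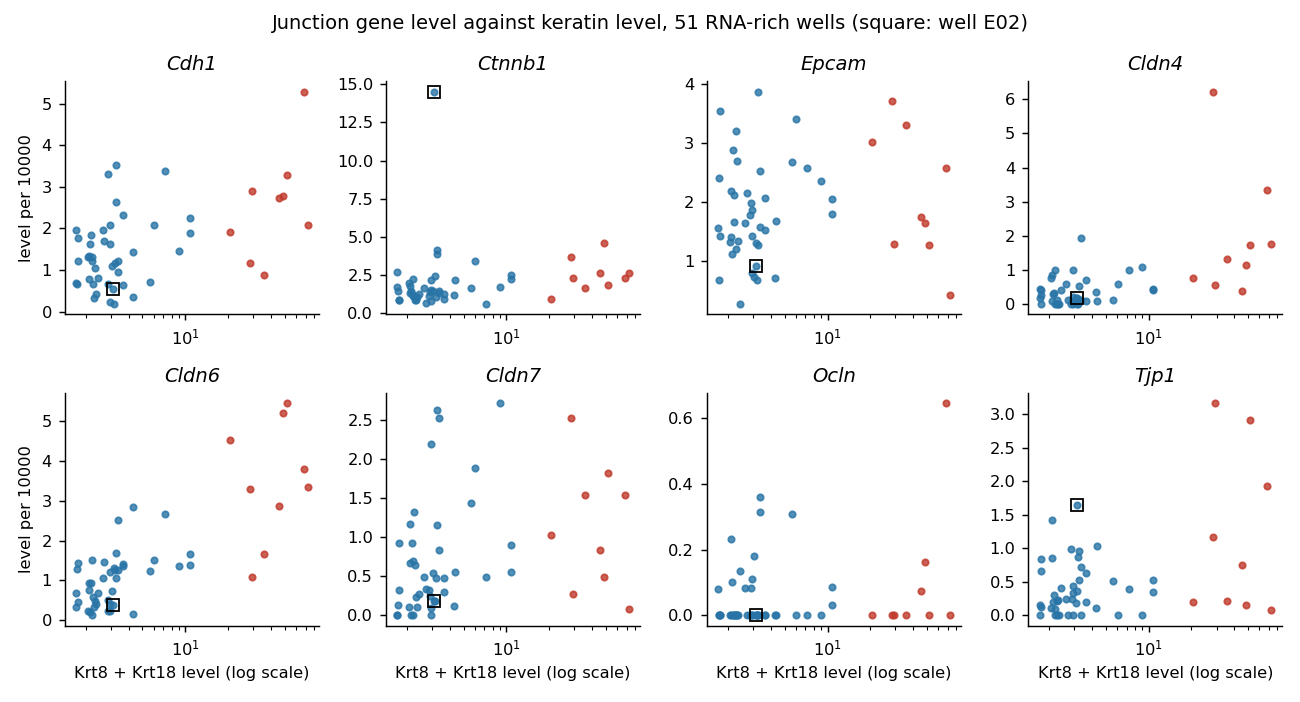
Each panel plots the level of 1 junction gene (molecules per 10000 gene molecules) against the summed level of Krt8 and Krt18 (log scale) in 51 RNA-rich wells, keratin-high wells in red and others in blue, with E02 in a square. Cldn6 climbs with keratin (rho 0.684), while Epcam shows little trend (rho 0.118) and Ctnnb1 is highest in E02.

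The keratin-high wells also differed in markers of other cells and of ES cells. The 13 ES cell markers had a median summed level of 43.3 in them and 111 in the other RNA-rich wells, and 9 of the 13 were at least 2-fold lower. Dppa5a, with a ratio of 0.511, gave 3916 of 5089 marker molecules in the keratin-high wells and 36436 of 51385 in the others. Tdh, threonine dehydrogenase, had a ratio of 0.144, and the pluripotency factor genes Nanog and Pou5f1 had 0.302 and 0.468. Feeder fibroblast markers summed to between 2.26 and 24.99 in the keratin-high wells (median 11.5) and to between 0.634 and 46.5 in the others (median 1.86). Of these 15 markers 11 had molecules in the keratin-high wells, and Postn, Lum, Thy1 and Col6a1 were at 0. Of 6 that passed the filter 4 were at least 2-fold higher, with a median ratio of 3.17. Sparc had 4.16, Col5a1 4.04, Tagln 3.97 and Col1a2 2.38, which became 0.835 without G12. Timp2 had 0.578, and Bgn was level (0.489 to 1.89), but both rested on E02, the highest of the other wells for each. Without E02 Timp2 had 1.39 and Bgn 2.97, and without their highest keratin-high well they had 0.425 and 0.756. Primitive endoderm markers gave 8 of 12 genes, with Gata6, Sox17, Sox7 and Hnf4a at 0, and a median summed level of 1.28 against 0.445. Of 3 that passed the filter 2 were at least 2-fold higher, Col4a1 at 4.91 and Dab2 at 3.98, which became 1.21 without D08. The part of these cells' RNA in the levels of the junction genes was not tested.

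Other genes of the same junctions were read from fixed lists. Of 12 further adherens junction genes, 9 passed the filter, 3 were at least 2-fold higher in the keratin-high wells and none lower, with a median ratio of 1.66. Vcl, vinculin at the actin anchor, had 3.40 (2.65 to 4.34), Ctnnd1, the p120 catenin that holds cadherin at the membrane, 2.43 (2.00 to 2.93) and Jup, plakoglobin, 2.28 (1.88 to 2.75). Ctnna1, alpha-catenin, the most abundant of the list, had 1.55 (1.36 to 1.77). Between low-RNA and RNA-rich wells all 12 passed, with a median ratio of 0.781. Plekha7 was higher in low-RNA wells at 5.77 (3.71 to 8.98), and Jup (0.377, 0.256 to 0.536) and Pvrl1 (0.361, on 3 molecules in low-RNA wells) were lower.
Of 25 further tight junction genes 14 passed, 4 were 2-fold higher in keratin-high wells and none lower, with a median of 1.69. They were Cgn, cingulin, at 3.07 (2.23 to 4.19), Cgnl1 at 2.83 (1.65 to 4.75), Cldn3 at 2.33 (1.35 to 3.91) and Cxadr at 2.19 (1.52 to 3.12). Without the highest keratin-high well of each gene, Cldn3 had 1.92 and Cxadr 1.56, so both fell under 2-fold, while Cgn had 2.88 and Cgnl1 2.15. F11r, junctional adhesion molecule A, had 1.72 (1.40 to 2.09).

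Desmosome and gap junction genes were mixed. Of 12 genes 7 passed, 2 were higher (Dsp, desmoplakin, at 3.67 and Perp at 3.63) and 1 lower (Gjc1, a connexin, at 0.414), with a median of 1.19. Dsp became 1.96 without its highest keratin-high well. Gja1, connexin 43, the most abundant of them, had 1.08 (0.924 to 1.25).
Of 16 epithelial regulators and surface proteases 10 passed, with 5 higher (St14, Cd24a, Spint1, Prss8 and Lad1) and 2 lower. Without the highest keratin-high well of each gene, Cd24a went from 2.62 to 1.47 and Lad1 from 2.07 to 1.64, both under 2-fold. St14, matriptase, had 5.96 (4.12 to 8.66), and its inhibitor gene Spint1 2.54 (1.597 to 3.96). Grhl2, a transcription factor of epithelial junction genes, had 0.409 (0.172 to 0.840) and Rab25, a trafficking GTPase, 0.344 (0.108 to 0.843), so list members went both ways.
Of 15 mesenchymal genes 6 passed, and Vim (2.13), Acta2 (2.70) and Snai1 (2.05) were past 2-fold. Without its highest keratin-high well each fell under 2-fold, to 1.10, 1.23 and 1.02, where the median of all genes also fell, to 0.803. Without its highest other well each stayed past 2-fold, at 2.56 for Vim, 3.44 for Acta2 and 2.85 for Snai1.

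Beyond the technical spread of spike-in RNAs, Cldn4, Cldn6, Cldn7 and Tjp1 varied between RNA-rich wells, though these calls depended on the threshold and other settings. For each gene the squared CV of scaled molecules was divided by that fitted to spike-ins at its mean, and the gene was called where this noise ratio reached 2 both with all wells and without its highest. Of 7 members with a mean of at least 1 molecule, 4 were called, against 7% of 7768 genes. That share rose with abundance, to 14.5% of the 3151 genes averaging 5 molecules or more. All 7 members were in that more abundant set, the scarcest being Tjp1 with 6.19 scaled molecules, so 14.5% is the closer background. Cldn4 had 5.75 (2.76 without its highest well), Cldn6 3.85 (3.33), Tjp1 2.95 (2.32) and Cldn7 2.59 (2.42). Ctnnb1 had 6.62, which became 1.61 without E02. Cdh1 had 2.22 (1.75) and Epcam 1.39 (1.29). With every well thinned to 50000 gene molecules none of the 7 was called (Cldn4 2.76, Cldn6 1.79, Cldn7 1.35 and Tjp1 1.16 with all wells). Genes were thinned there but the spike-in fit was not, so these lost calls cannot be read as an effect of depth. At a ratio of at least 3 only Cldn6 was called.
Without the 9 keratin-high wells only Cldn7 of the 7 members tested was called, at 2.70 (2.42), against 5.71% of 7741 genes. Cldn4 then had 1.62, Cldn6 1.54 and Tjp1 1.40. The calls of these 3 were thus lost without the keratin-high wells and that of Cldn7 was not, although it too was lost by thinning and at a ratio of 3.

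Levels of the members went together weakly to moderately across wells. Correlations here are descriptions over 51 wells of 1 culture that share library preparation and the division by gene total, and no p is given. Over 21 pairs of the 7 members averaging 5 molecules or more, Spearman's rho had a median of 0.2503, from -0.0046 for Ctnnb1 and Epcam to 0.623 for Cldn4 and Cldn6. Epcam and Cldn7, whose proteins bind each other, had 0.589, Cldn6 and Cldn7 0.506, and Cdh1 and Cldn4 0.496. Without the keratin-high wells these 4 were 0.460, 0.543, 0.503 and 0.464, so the closest pair became Epcam and Cldn7. Cdh1 and its partner Ctnnb1 had 0.325, and 0.225 without those wells. In the 45 low-RNA wells the median was 0.0303 and the highest rho 0.295, at means from 0.6 molecules per well for Cldn4 to 3.64 for Cdh1.

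**Figure D5:**
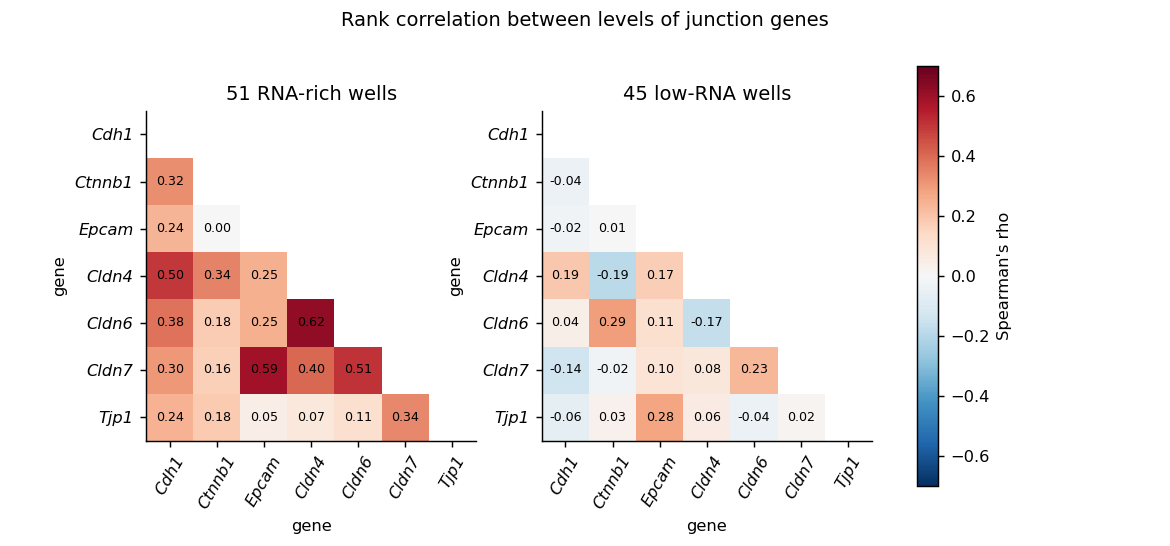
Cells give Spearman's rho between the levels of 2 junction genes over 51 RNA-rich wells (left) and 45 low-RNA wells (right), coloured from blue (negative) to red (positive). Cldn4 with Cldn6 (0.62) and Epcam with Cldn7 (0.59) are the deepest red on the left, and the highest on the right is 0.295.

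Against keratin level, Cldn6 had a rho of 0.684 over RNA-rich wells and 0.499 without the keratin-high wells. Cldn7 had 0.406 and 0.394, Cldn4 0.462 and 0.168, Cdh1 0.389 and 0.182, and Epcam 0.118 and 0.120. With the summed ES cell markers, mostly Dppa5a by molecules, each of the 7 members correlated (Ocln was not) had a negative rho, from -0.480 for Ctnnb1 to -0.146 for Epcam. Without the keratin-high wells that of Cldn7 was the lowest at -0.492. With the total of gene molecules the largest was 0.313, for Cdh1.

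The genes most alike to each member were taken as the 3 highest values of rho over 3141 genes averaging 5 molecules or more. For Cdh1 they were Strn3 (0.598), Actn1 (0.578), an actin crosslinker, and Actg1 (0.554), whose level is uncertain because 0.464% of its molecules came from unique reads. The middle 95% of all these genes ran from -0.286 to 0.393 for Cdh1. For Ctnnb1 they were 2200002D01Rik (0.555), Iqgap1 (0.531), a junction and actin scaffold, and Fstl1 (0.516). For Epcam they were Slc16a1 (0.533), a lactate transporter, Lars (0.531), the leucyl-tRNA synthetase, and Atf4 (0.519).
Cldn4 was most like Cstb (0.550), the phosphatase gene Dusp1 (0.541) and Btg1 (0.538). Cldn6 was most like Krt18 (0.673), Krt8 (0.616, with 73.5% unique reads) and Ube2b (0.547), a ubiquitin-conjugating enzyme. Cldn7 was most like Gtf3c2 (0.546), the proteasome activator gene Psme1 (0.542) and Ube2b (0.528). Tjp1 was most like Wls (0.4997), Rrp1 (0.478) and Adipor1 (0.475). Without the keratin-high wells, Krt18 and Krt8 had 0.478 and 0.386 with Cldn6, while Psme1 had 0.621 with Cldn7 and Strn3 0.665 with Cdh1.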

How the data were processed

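The table holds molecule counts for each feature and barcode, deposited by the authors. A read that matched more than once was given to the exonic match nearest the 5' end, per the file headers. Bowtie and the mm10 (GRCm38) build are listed in the submitters' processing notes. Of 25914 features, 24264 are genes, and 96 spike-ins and 1554 repeat types were left out of gene totals. Wells held 8774 to 573648 gene molecules, and intervals cover counting error only.

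The members, gene lists, well ranges, keratin limit and named-gene rule were chosen with earlier results of these data known. That rule took from each list the 3 most abundant genes and up to 4 past 2-fold, and 3 genes most alike to each member. The text prints a selection. A pooled level is summed molecules over summed gene molecules. Genes past 2-fold were counted among those with at least 50 molecules, and the ratios printed for Ocln, Cdx2, Gata3 and Eomes are of genes under that limit. For noise, genes were scaled by gene totals and spike-ins by spike-in totals, and squared CV = 3.23/mean + 0.00874 was fitted to 65 spike-ins. The scripts were tested on simulated data with noise set to the spike-in fit. Of genes simulated with a 4-fold ratio between low-RNA and RNA-rich wells, 99% were called past 2-fold. So were 10.8% of genes simulated without a change. Cells of 1 culture are not replicates, so no p-values were computed. Alternatives changed normalization (including scran 1.30.0), wells, thinning and filters. Python 3.11.15, numpy 2.4.6, scipy 1.17.1 and statsmodels 0.14.6 were used.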

Additional observations from a re-analysis of the deposited data

How the results depend on the processing

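No paired analysis was possible because each column of counts carries a barcode that both library forms of a cell share, so no groups of samples with shared numbers were compared. The count of 1 member past 2-fold between low-RNA and RNA-rich wells became 0 with the gene total without mitochondrially encoded genes and Rn45s, 0 with scran size factors, 0 with RNA-rich wells under the keratin limit, 2 with medians of wells (Cldn4 and Tjp1, both with a median of 0 in low-RNA wells) and 7 with spike-in totals. The median ratio of all genes moved from 0.760 to 1.02, 0.960 and 0.236 with the first, scran and spike-in totals, so with spike-in totals 91.5% of genes were 2-fold lower. The count of 3 past 2-fold in keratin-high wells was 5 with medians of wells, which added Cdh1 and Cldn7, and 3 or 4 otherwise. Over the alternatives the ratio ran from 3.06 to 6.83 for Cldn4, 2.57 to 3.76 for Cldn6, 2.23 to 3.69 for Tjp1 and 0.991 to 1.28 for Epcam. The count of 4 above spike-in noise was 1 under the keratin limit and 1 with a ratio of at least 3 (Cldn6). It was 0 with wells thinned to 50000 gene molecules. Means are lower there, the spike-in fit was not thinned and 2.13% of all genes were called. Otherwise the count was 4 or 5. Over all genes 544 were called, against 947 with spike-in totals, 189 with a ratio of at least 3 and 114 when thinned. The median rho stayed between 0.237 and 0.329. Of 8 members 5 had the lower thinned share of wells in low-RNA wells, against 2 when thinned to 20000, which also left out 16 low-RNA wells and turned Tjp1 to 49.8% in RNA-rich and 52.4% in low-RNA wells, and 8 without thinning. The alternatives without E02, without H05, without the highest keratin-high well of each gene, with keratin ratios thinned to 50000 and with shares not thinned were chosen after seeing the data. Depth limits what can be said of Ocln in any well and of Cldn4 and Tjp1 in low-RNA wells.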
